A study of Homo sapiens with 4 samples.

Results

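Strong distal regions of open chromatin found in LNCaP cells and in neither library of the enzalutamide-resistant LN-35 subline numbered 3634, of 151102 regions in all 4 ATAC-seq libraries together. LNCaP is an androgen-responsive prostate carcinoma cell line, labelled WT. The resistant cells are labelled LNCaP-resistance, with the genotype resistance cells and the treatment enzalutamide, an antagonist of the androgen receptor. The labels give RPMI-1640 with fetal bovine serum as the medium of both. By the study's methods the sublines were made by adapting LNCaP to charcoal-stripped serum, which is poor in androgens, and then raising the drug dose in steps, so that long culture, serum and drug cannot be told apart. The labels do not number the subline, and the name LN-35 was taken from the names of the deposited lists. There were 2 libraries per cell type, marked as repeats 1 and 2, and nothing says that repeats came from separate cultures.

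Each deposited list gives the summit, the position of the highest signal, of every peak called in a library, with a score on a −log10 scale. A region was made by widening every summit by 250 bp on either side and merging windows that overlapped across the 4 libraries. To be a member, a region needed a summit in both LNCaP libraries, a summit in neither LN-35 library, a strongest summit over 3 kb from either end of any RefSeq gene, and a mean percentile of at least 80 over the LNCaP libraries. The percentile of a summit is the percent of its own library's summits that scored at or below it. The members were thus chosen by their summits in all 4 libraries and by their LNCaP scores, so that their absence from LN-35 and their height in LNCaP are given below as descriptions, with no test. Lists from cell populations cannot tell fewer open cells from less open chromatin per cell.

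In ATAC-seq a transposase cuts and tags DNA that is not wrapped tightly in nucleosomes, so peaks mark promoters, enhancers and insulators. Elements away from gene ends are mostly enhancers, which are bound by cell-type-specific factors, differ more between cell states than promoters do, and can act on genes far away along the chromosome. In luminal prostate cells the androgen receptor works largely through such elements, together with the pioneer factor FOXA1, which opens them, and partners such as HOXB13 and GATA2. Genes are named here as the nearest protein-coding gene or the gene that holds the summit, and not as targets.

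Sequence could be shown for a small and particular group of members. For 14 of the 3634 the strongest summit fell between 250 bases before and 50 after an annotated transcription start that lies inside a gene, more than 3 kb from its ends, and RefSeq gives the bases before that start (assembly GRCh38.p14). The 4 strongest are printed because they let the LNCaP signal be read against the reference bases, which are not sequence from LNCaP cells. They lie at internal starts of HIP1, which codes for a clathrin adaptor of endocytosis, at chr7:75611817-75612066 on the minus strand, of LARP1, a regulator of the translation of ribosomal protein mRNAs, at chr5:154712593-154712842 on the plus strand, of C21orf58 at chr21:46318221-46318470 on the minus strand, and of TRPM8, a cold-sensing cation channel regulated by androgens in prostate, at chr2:233953503-233953752 on the plus strand. Each run ends at the base before the start, and capitals mark matches to the motifs searched.
HIP1: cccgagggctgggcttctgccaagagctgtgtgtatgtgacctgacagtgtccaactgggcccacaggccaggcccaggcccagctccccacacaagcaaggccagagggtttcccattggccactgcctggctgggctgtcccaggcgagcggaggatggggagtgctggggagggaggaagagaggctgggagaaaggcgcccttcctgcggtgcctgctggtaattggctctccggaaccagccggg
LARP1: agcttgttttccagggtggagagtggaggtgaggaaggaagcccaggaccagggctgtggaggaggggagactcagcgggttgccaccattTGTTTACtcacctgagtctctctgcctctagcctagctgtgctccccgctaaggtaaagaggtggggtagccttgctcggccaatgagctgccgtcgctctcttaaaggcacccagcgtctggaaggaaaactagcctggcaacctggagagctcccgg
C21orf58: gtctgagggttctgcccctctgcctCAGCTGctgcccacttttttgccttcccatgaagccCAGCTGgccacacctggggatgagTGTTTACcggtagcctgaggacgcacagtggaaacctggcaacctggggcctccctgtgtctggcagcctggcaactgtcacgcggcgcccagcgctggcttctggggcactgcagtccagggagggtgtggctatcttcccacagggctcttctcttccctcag
TRPM8: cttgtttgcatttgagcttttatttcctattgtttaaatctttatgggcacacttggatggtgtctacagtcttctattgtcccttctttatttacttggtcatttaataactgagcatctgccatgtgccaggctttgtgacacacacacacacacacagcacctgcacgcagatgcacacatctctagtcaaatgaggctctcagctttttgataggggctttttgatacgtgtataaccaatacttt

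Both LARP1 and C21orf58 held the forkhead letters TGTTTAC, the core bound by FOXA1 and its relatives, on the printed strand, 159 to 153 bases before the start in LARP1 and 165 to 159 before it in C21orf58. C21orf58 also held the E-box CAGCTG at 225 to 220 and at 189 to 184 bases before its start. The HIP1 and TRPM8 stretches held none of the letters searched. Both strands were searched for these motifs and for the full androgen response element (inverted repeats with a gap between), its left part AGAACA, the HOXB13 motif CCAATAAA, the GATA-factor motif AGATAA, the paired NFI motif, the GRHL motif AACNNGTT, the AP-1 motif TGANTCA, the ETS-factor motif CCGGAAGT and the CTCF core. Of the 11 motifs, the part AGAACA overlaps the full element by construction. Among the 14 members' stretches, 3 held TGTTTAC, 4 CAGCTG, 2 AGAACA and 1 AGATAA, and the other 7 motifs had no match. Over all 35114 annotated starts the stretches with these letters made up 2.98%, 13.98%, 12.4% and 9.17%. A match is a description of the letters and not a bound site, and 14 stretches are too few to compare shares.

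The rule fixed that these internal starts had no LN-35 summit in their region, while other starts of the same genes were often open in all 4 libraries. At the internal HIP1 start the member scored 72.5 in LNCaP replicate 1 and 73.1 in replicate 2, with its summit 81 bases before the start, and the nearest LN-35 summits lay 3248 and 12409 bp away. Within 1 kb of the outer HIP1 start, 127125 bp upstream, the best summits reached percentiles 92.05 and 92.6 in the LNCaP repeats, against 98.9 and 94.2 in the LN-35 repeats. LARP1 had the same arrangement, with scores of 64.4 and 53.4 at the member and, at the outer start, percentiles of 95.8 and 92.4 for LNCaP against 89.9 and 81.6 for LN-35. For C21orf58 the member was at percentiles 95.9 and 96.5, and its outer start reached 67.3 and 69.9 in the LNCaP repeats, against 82.5 and 74.7 in the LN-35 repeats. Other internal starts were open in all 4 libraries as well, at percentiles between 53.0 and 67.9 at 99699 bp inside HIP1 and between 88.5 and 95.9 at 72398 bp inside LARP1. At TRPM8 the outer start had no summit within 1 kb in any library. Its member was at percentiles 96.5 and 94.6, and the only LN-35 summit near any annotated TRPM8 start was at percentile 23.8, in replicate 2. KCNAB2, a potassium channel subunit, was a further case, with the member 33657 bp inside the gene at percentiles 96.5 and 92.3 and its outer start at 97.6, 99.1, 97.4 and 98.1 in the 4 libraries, and a start 42012 bp inside it at 84.3, 84.6, 85.5 and 82.2. The member at CDC14A, a phosphatase, is an exception to the pattern, since LN-35 summits lay 619 and 641 bp from its own summit, close to the same internal start.

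Members made up 31.3% (95% Wilson interval 30.4 to 32.1) of the 11628 strong distal regions of both LNCaP libraries, and 31.3% is also the background share, since these are the regions that could have been members. Of all regions of both LNCaP libraries, at any strength, 48.3% had no LN-35 summit, and of the distal ones 56.9%. Of the rest of the 11628 strong distal regions, 6230 had a summit in both LN-35 libraries and 1764 in a single LN-35 library. The intervals given for shares cover counting error over regions only, which are not replicates of a cell type. An exact permutation test of 2 against 2 libraries cannot give a two-sided p below 0.333, and none was run between the cell types. The lists were of unequal length, with 117245 and 107344 summits in LNCaP and 70866 and 45618 in LN-35, and they hold no read counts, so sequencing depth is unknown. Fewer or weaker accessible sites and fewer reads cannot be told apart from these lists. When each list was restricted to its 45618 highest summits, percentiles were ranked anew, so the bar for a strong LNCaP region was stricter. Then 1235 of 4098 strong distal regions met the rule, 30.1%, and 956 of the 3634 members were among them. At a mean percentile of 90 or more in the full lists the share was 25.2% of 5179. Within repeat 1 alone the share was 34.7% and within repeat 2 alone 46.7%.

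Strong regions close to gene ends were less often missing from LN-35. Of 9688 strong LNCaP regions within 3 kb of a gene end, 946 (9.76%) had no summit in either LN-35 library. In the opposite direction, 111 of 2817 strong distal regions of both LN-35 libraries (3.94%) had no LNCaP summit. This reverse share was 6.84% without LN-35 replicate 2 and 6.39% without LNCaP replicate 1. Within repeat 1 alone it was 9.09% and within repeat 2 alone 5.82%, and the near-end share was 12.2% and 15.8%. With equal lists the near-end share was 6.34% and the reverse share 13.2%, beside 30.1% for the strong distal LNCaP regions. The strong distal LNCaP share was above both of the others in all 16 alternative settings tried, while the near-end share was above the reverse share in the lists as deposited and below it with equal lists.

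**Figure D1:**
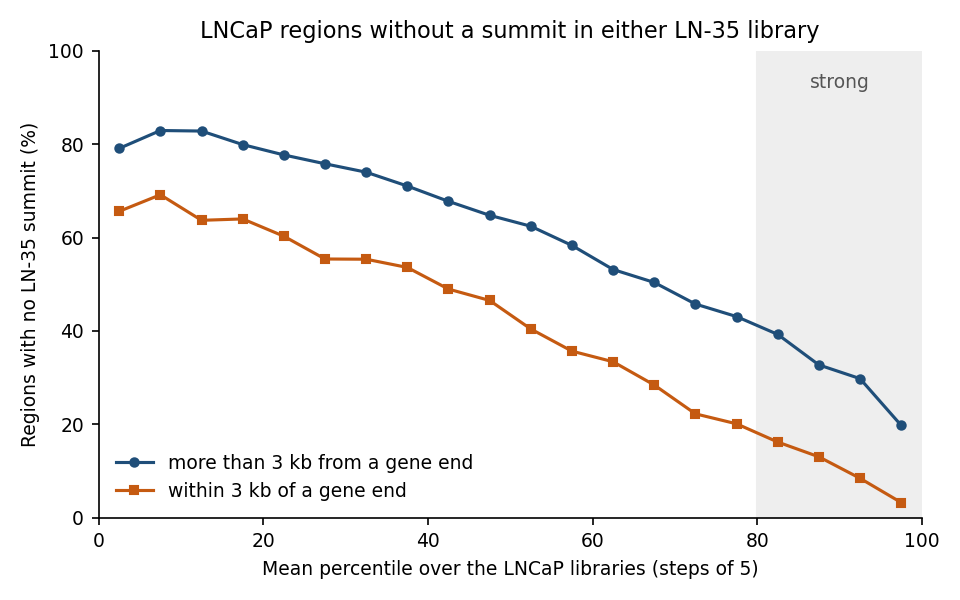
Percent of regions of both LNCaP libraries with no summit in either LN-35 library (vertical axis) by mean LNCaP percentile in steps of 5 (horizontal axis), for regions more than 3 kb from a gene end (circles) and within 3 kb (squares). Away from gene ends the share fell from 82.9% at percentiles 5 to 10 to 19.8% at 95 to 100, and near gene ends from 69.2% to 3.28%, and the shaded range holds the strong regions.

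The share missing from LN-35 fell with strength but stayed well above 0 at the top. Away from gene ends it was 39.3% at mean percentiles 80 to 85, 32.7% at 85 to 90, 29.8% at 90 to 95 and 19.8% from 95 up. Near gene ends the same steps gave 16.2%, 13.1%, 8.47% and 3.28%. Among the 402 distal regions at a mean percentile of 99 or more, 46 were members, a share of 11.4% (8.69 to 14.9). Where a strong distal region did have an LN-35 summit in a single library, that summit ranked low. In 1629 of the 1764 such regions it was in LN-35 replicate 1, which has the longer list, at a median percentile of 33.0. In the regions with a summit in all 4 libraries the median LN-35 percentiles were 77.0 in replicate 1 and 62.0 in replicate 2.

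Between repeats of the same cell type, strong distal regions were almost never missing. Of 13108 distal regions at percentile 80 or more in LNCaP replicate 1, 0.236% had no summit in LNCaP replicate 2, 34.5% had none in LN-35 replicate 1 and 47.2% none in LN-35 replicate 2. For the 11719 of LNCaP replicate 2 the shares were 0.393% in the other LNCaP library and 33.1% and 46.5% in LN-35. In the reverse comparison, 8.96% and 9.77% of the 4608 strong distal regions of LN-35 replicate 1 were missing from the LNCaP libraries and 0.955% from the other LN-35 library. For the 2149 of LN-35 replicate 2 the shares were 4.89% and 5.58% in the LNCaP libraries and 0.791% in the other LN-35 library. The difference between cell types exceeded that between repeats in every pair, and its size differed by which LN-35 library was used.

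**Figure D2:**
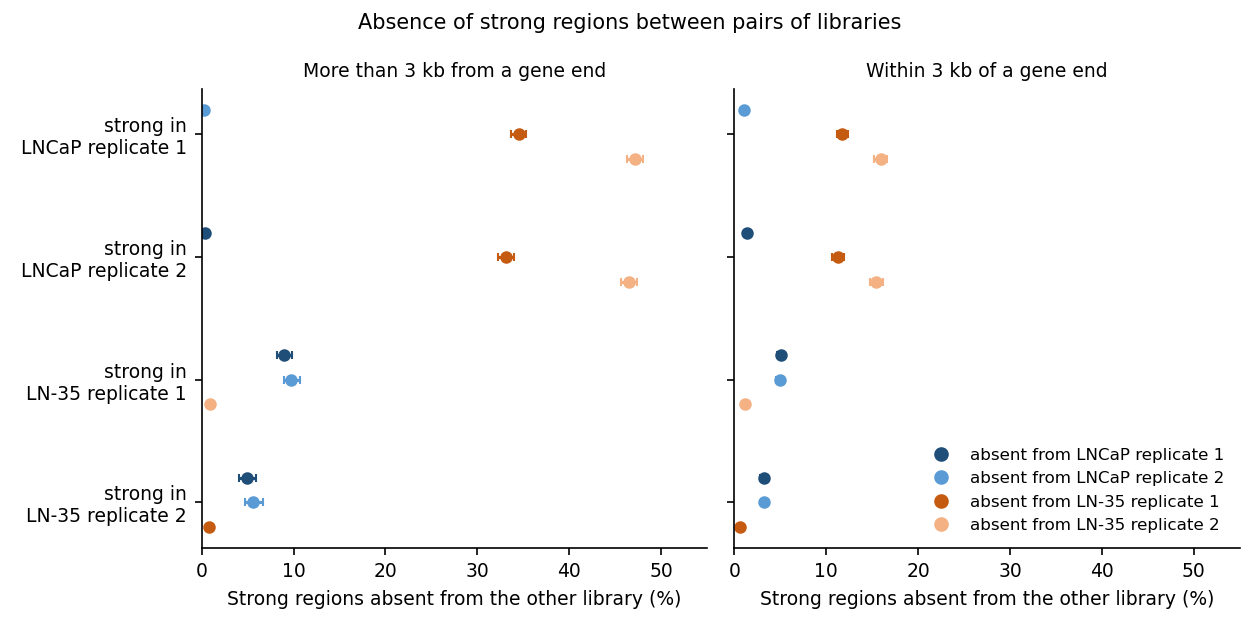
Percent of a library's strong regions (percentile 80 or more, rows) with no summit in each other library (colours), more than 3 kb from a gene end (left) and within 3 kb (right), with 95% Wilson intervals. Strong distal LNCaP regions were missing from LN-35 in 33.1 to 47.2% and from the other LNCaP library in under 0.4%, and the same shares near gene ends were 11.2 to 15.9% and 0.990 to 1.41%.

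The members were sharply placed and alike in the LNCaP repeats. The median distance between the best summits of replicates 1 and 2 was 13 bp, and 96.8% of members had exactly 1 summit in each library. Their median percentile was 88.8 in replicate 1 and 87.7 in replicate 2, with median scores of 37.1 and 30.1, and the scores ran from 20.0 to 114 and from 16.6 to 95.5. The median gap between a member's percentiles in the repeats was 3.92 points. Strong distal regions of all 4 libraries had a median offset of 12 bp, a median gap of 2.94 points and a median mean percentile of 90.3, against 87.6 for the members. The lowest member ranked at 35496 of the summits of LNCaP replicate 1 and at 32978 of those of replicate 2. The threshold on the mean percentile bounds both ranks, so they do not bear on the unequal lengths of the lists.

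At the threshold, members and excluded regions were next to identical. The 3 members just inside it were in SPSB4, with LNCaP percentiles of 85.9 and 74.1, in RGS12, with 76.3 and 83.7, and in RAB35, with 78.8 and 81.2. The 3 LNCaP-only regions just outside it were in IPO11 with 84.98 and 75.02, in AGPAT2 with 84.2 and 75.8, and in IVD with 77.5 and 82.5. The repeats of these 6 regions differed by far more than the regions differed in their mean.

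The 10 strongest members all stood above 99.5 in mean percentile, and 9 of them were inside a protein-coding gene. The strongest was in COL24A1, which codes for a fibrillar collagen, at chr1:86105012-86105517, 51722 bp from the gene's 5′ end, with scores of 114 in LNCaP replicate 1 and 82.5 in replicate 2. The nearest LN-35 summits were 51708 and 51715 bp away, at about the distance of that gene's end. Next was TMCC1, an endoplasmic reticulum membrane protein, at chr3:129673777-129674324, with scores of 93.2 and 94.0. In these first regions the repeats were within 0.1 percentile points of each other.

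AFDN codes for afadin, which ties nectins to actin at cell junctions, and its member at chr6:167906825-167907337 scored 84.9 and 92.5. An LN-35 replicate 1 summit lay 1163 bp from it and the nearest of replicate 2 was 25993 bp away. CMIP had a member at chr16:81581140-81581648 with scores of 76.7 and 95.5. The member in GRK3, a kinase that desensitizes G protein-coupled receptors, at chr22:25628428-25628940 scored 83.5 and 73.3 and had no LN-35 summit within 63603 bp. HEXA, a lysosomal hexosaminidase subunit, held one at chr15:72358740-72359242 with scores of 87.2 and 69.3, 17024 bp from a gene end. These members thus differed widely in how far the nearest LN-35 signal was, at close to equal strength in LNCaP.

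CTNNBIP1 codes for an inhibitor of β-catenin and TCF interaction, and its member at chr1:9900314-9900817 scored 80.2 and 74.7, with LN-35 summits 1424 and 1378 bp away. The only intergenic region of the 10 lay 5360 bp from ZP1 at chr11:60880797-60881297, with scores of 84.8 and 69.1. TMEM178B held a member at chr7:141288563-141289494 with scores of 81.8 and 70.5. SLC22A4, an organic cation transporter, held one at chr5:132301858-132302361 with scores of 75.3 and 76.2.

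Most members were inside genes, well away from their ends. Of the 3634, 2617 (72.0%, 70.5 to 73.5) were inside an annotated gene and 2279 (62.7%) inside a protein-coding gene, spread over 1702 genes. Of the 6230 strong distal regions of all 4 libraries, 68.4% (67.3 to 69.6) were inside a gene and 58.5% inside a protein-coding gene. The members lay a median of 17614 bp (95% order-statistic interval 16884 to 18317) from the nearest gene end, and those regions 14266 bp (13705 to 14925). The protein-coding genes that held members had a median length of 155718 bp over members, against 134602 bp. Long host genes were not particular to members, with medians of 154303 bp for regions with 1 LN-35 library and 170289 bp for weaker distal LNCaP-only regions. Along the host gene the median position was 50.03% of the way from the 5′ end, over the 1873 members whose host gene has a known strand. Weaker distal LNCaP-only regions resembled the members in distance, with a median of 17877 bp, but 67.0% of them were inside a gene. Strong distal regions with 1 LN-35 library lay a median of 17030 bp from a gene end, and 69.5% (67.3 to 71.6) were inside a gene.

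The higher share inside genes was also seen at equal strength. From mean percentiles 80 to 85 it was 70.3% (67.7 to 72.7) for members and 65.9% (63.5 to 68.3) for regions of all 4 libraries. From 95 up it was 79.3% (75.4 to 82.7) and 72.4% (70.2 to 74.5). The intervals overlapped in every step below 95. Members were inside genes more often in all 16 alternative settings. No test was run, since regions of 1 library are not replicates.

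Annotated transcription starts inside genes separated the sets more clearly. Only 20 members (0.55%, 0.357 to 0.849) lay within 500 bp of any annotated start, against 398 (6.39%, 5.81 to 7.02) of the strong distal regions of all 4 libraries. From mean percentiles 95 up the shares were 1.07% and 9.50%. The members were below in each step of strength and in all 16 alternative settings. Of the regions with 1 LN-35 library 0.794% lay that close, and of the weaker distal LNCaP-only regions 0.391%. A low share near starts was thus not particular to members. In the 14 stretches with a member the median GC content was 53.4% with a median of 4 CpG dinucleotides, in the 295 with a region of all 4 libraries 62.8% with 18, and over all 35114 annotated starts 58% with 11.

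**Figure D3:**
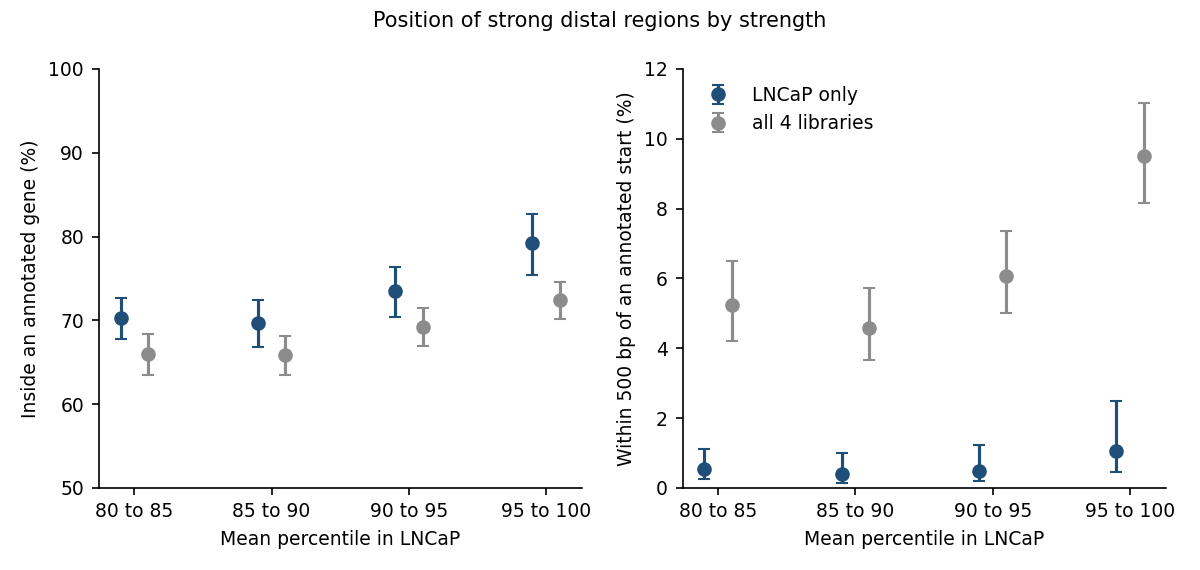
Percent of strong distal regions inside an annotated gene (left, axis from 50) and within 500 bp of an annotated transcription start (right), by mean LNCaP percentile, for members (blue) and regions of all 4 libraries (grey), with 95% Wilson intervals. Members were inside genes more often in each step, 79.3% against 72.4% at the top, and were near starts less often, 1.07% against 9.50%.

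Around the members the LN-35 lists were thin rather than empty. The nearest LN-35 summit of either library lay a median of 15435 bp away (14715 to 16273). It was within 1 kb for 62 members, within 10 kb for 1281 (35.3%) and beyond 100 kb for 174 (4.79%). Within 50 kb on either side, members had a mean of 6.74 and 6.28 LNCaP summits, their own included, and 2.97 and 1.90 LN-35 summits. Strong distal regions of all 4 libraries had 7.14 and 6.71 LNCaP summits and 5.06 and 3.70 LN-35 summits, again their own included. The LN-35 values thus differed between the sets by more than the presence of the region itself, while the LNCaP values were close. No LN-35 summit lay within 50 kb for 16.2% of members in replicate 1 and 28.3% in replicate 2. The farthest was a member at chr5:12758091-12758601, at percentiles 99.7 and 98.9, with the nearest LN-35 summit 419185 bp away and CTNND2, which codes for δ-catenin, 853895 bp away. It was named after its value was seen.

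The regions next to a member along the chromosome were more often LNCaP-only as well. Of the 7268 regions flanking a member 34.8% were LNCaP-only and 15.8% had a summit in all 4 libraries, while next to strong distal regions of all 4 libraries these shares were 26.8% and 21.6%, and over all regions 27.5% and 21.1%. Next to weaker distal LNCaP-only regions 32.7% were LNCaP-only, and the nearest LN-35 summit to those was a median of 14820 bp away, so the surroundings of members were close to those of weaker LNCaP-only regions. Members themselves were mostly scattered. By joining members under 50 kb apart, 2830 stood alone, 594 formed 297 pairs, 174 formed 58 runs of 3 and 36 formed 9 runs of 4.

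The 9 runs of 4 had the most members, and in each of them every strong distal LNCaP region between the outer members was a member. The most compact was in TTC7B, a subunit of the complex that brings a phosphatidylinositol kinase to the plasma membrane, with 4 members over 23949 bp of chromosome 14. Their mean percentiles were 83.7, 89.5, 87.6 and 89.0, and no LN-35 summit fell between them. VAV2, a guanine nucleotide exchange factor, held 4 over 28987 bp of chromosome 9 at mean percentiles of 88.7 to 93.7, again with no LN-35 region between. LRP5, a co-receptor of WNT ligands, held 4 over 37632 bp, the strongest at chr11:68380186-68380791 with percentiles of 95.8 and 98.3. Upstream of IL12B, a subunit of interleukins, 4 lay over 38810 bp, the strongest at chr5:159416418-159416918 with 97.2 and 97.6. PARP11, a mono-ADP-ribosyltransferase, held 3 and had 1 upstream, and its member at chr12:3863543-3864098 reached 99.7 and 99.3, the highest of the 36. The other runs were at BIN1, ARHGAP44, ANKRD44 and TSHZ3, over 59879 to 94667 bp. No single span held more than 2 regions with an LN-35 summit.

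Counted by nearest protein-coding gene, the members fell on 2601 genes, 1942 of which had a single member. The most were at 6 long genes, with 9 of 10 strong distal regions in RORA, 9 of 11 at KAZN, 9 of 13 at TENM4, 8 of 11 at HDAC4, 8 of 12 at PTPRM and 8 of 13 at AUTS2. These genes are between 353482 and 1225220 bp long. RORA codes for a nuclear receptor of lipid metabolism and circadian rhythm, and all 9 of its members were inside it, at mean percentiles between 80.4 and 89.4 and with the nearest LN-35 summit between 11022 and 134512 bp away. KAZN codes for a desmosome-associated protein. Its strongest member at chr1:14135013-14135513 had percentiles of 98.6 and 94.8, and no LN-35 summit lay within 169246 bp of it.

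TENM4 codes for a teneurin, a cell adhesion protein of the nervous system. It had 6 members inside the gene and 3 upstream, the strongest at chr11:79209798-79210310 with percentiles of 96.4 and 95.7. HDAC4 codes for a class IIa histone deacetylase, a transcriptional corepressor. Its 8 members had mean percentiles between 84.0 and 98.1, the strongest at chr2:239246665-239247173 with scores of 64.3 and 52.9. A member there, at chr2:239157193-239157699, lay 534 bp from an LN-35 summit, so it passed as absent only because the widened windows did not touch. PTPRM codes for a receptor tyrosine phosphatase of cell contacts, and none of its 12 strong distal regions was in all 4 libraries. Its strongest member at chr18:8162718-8163223 scored 78.8 and 52.8 and had no LN-35 summit within 136303 bp. AUTS2, a nuclear protein of brain development, had 6 members inside and 2 upstream, at mean percentiles between 82.7 and 96.3.

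**Figure D4:**
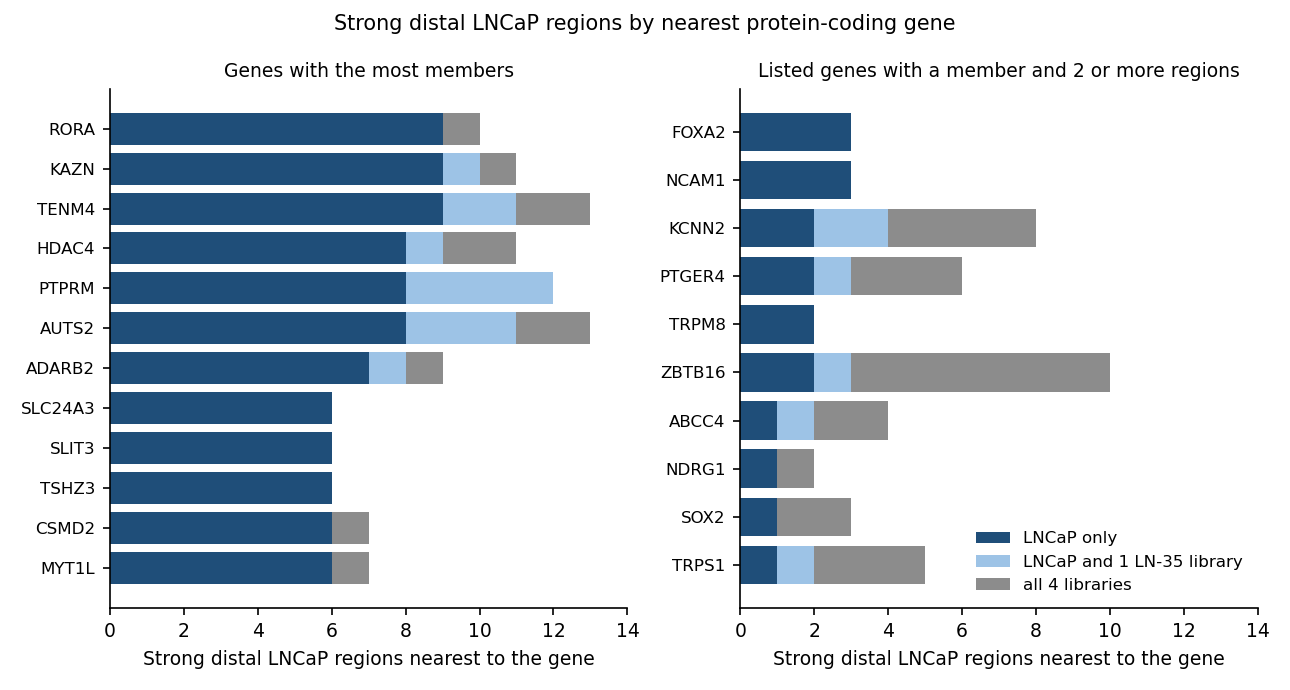
Number of strong distal LNCaP regions nearest to a protein-coding gene, split into members (dark blue), regions with 1 LN-35 library (light blue) and regions of all 4 libraries (grey), for 12 of the genes with 6 or more members, ordered by number and then by share of members (left) and for the listed genes with a member and 2 or more strong distal regions (right). All 6 regions at SLC24A3, SLIT3 and TSHZ3 were members, and at ZBTB16 2 of 10 were.

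Genes with many strong distal regions were not all alike. Of 349 protein-coding genes with 5 or more strong distal regions, every region was a member at 12 and none was at 39. Examples of the former, named after their values were seen, were SLIT3, a secreted guidance ligand, with 6 of 6, TSHZ3, a zinc finger factor, with 6 of 6, and ALK, a receptor tyrosine kinase, with 5 of 5. Examples of the latter were CNTNAP2, a neurexin-like protein and longer than any gene above at 2304198 bp, with 0 of 13, PRKCA, a protein kinase C, with 0 of 9, and TBX3, a T-box factor, with 0 of 6, all of them outside the gene. Of the 13 at CNTNAP2, 9 were in all 4 libraries and 4 in 1 LN-35 library.

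Beside genes known to respond to the androgen receptor, members were found at a share whose interval took in that of all strong distal regions. At the 32 listed target genes 14 of 55 strong distal regions were members, 25.5% (15.8 to 38.3), beside 31.3% of all. The count was 24 without LN-35 replicate 1, where 45.3% of all strong distal regions were members. The strongest was in MPHOSPH9, which codes for a centrosomal protein, at chr12:123171889-123172389 with percentiles of 96.6 and 97.6 and the nearest LN-35 summits 21017 and 21022 bp away. In KCNN2, a calcium-activated potassium channel, a member at chr5:114265630-114266150 had percentiles of 98.5 and 94.6 and the nearest LN-35 summit 66781 bp away. TRPM8 had 2 strong distal regions and both were members, the stronger being the one printed above, at chr2:233953326-233954160. Upstream of PTGER4, a prostaglandin receptor, a member 9999 bp from the gene had percentiles of 95.8 and 89.2. Further members were at STEAP1, ABCC4 and NDRG1, 2 of the 10 strong distal regions at ZBTB16, and a further one each at KCNN2 and PTGER4. Strong distal regions at KLK2 and PMEPA1 were in all 4 libraries, and those at HERC3 and FKBP5 were in LN-35 at least once.

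Of 15 strong distal regions at 15 luminal and pioneer factor genes, 2 were members, 13.3% (3.74 to 37.9), beside 31.3% of all strong distal regions. Among them was one 444409 bp from TRPS1, a GATA-type repressor. The count was 4 without LNCaP replicate 2, where all members numbered 4363. All 3 at GRHL2, both at ELF3 and both at CDH1, genes of epithelial identity, were in all 4 libraries. At 18 neuroendocrine genes 7 of only 12 were members, 58.3% (32.0 to 80.7), beside the same 31.3%, which is close to the lower bound. They were 3 at NCAM1, a neural cell adhesion molecule, 3 at FOXA2 and 1 at SOX2, both transcription factors of neuroendocrine prostate cancer. A single one was inside a listed gene, in NCAM1 at chr11:113114428-113114937 with percentiles of 87.9 and 96.3 and no LN-35 summit within 99661 bp. The FOXA2 members lay 176918 to 367527 bp from it and the SOX2 member 451026 bp from it, so the gene name is little more than a position. With equal lists, where the strength bar was stricter and all members numbered 1235 in place of 3634, the count was 1 in place of 7. PROX1, a homeobox factor and a main subject of the study, had 1 strong distal region and it was in all 4 libraries. The single strong distal regions at SYP and SNAP25 were in all 4 libraries too, as were 2 of the 3 at SOX2.

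By chromosome, members made up between 20.1% (15.8 to 25.4) of strong distal regions on chromosome 19 and 39.9% (34.6 to 45.5) on chromosome 18, leaving out Y, where 7 of 15 regions were members. Low shares were also found on X, with 20.9% (14.8 to 28.7), and on chromosome 7, with 23.5% (20.5 to 26.9). High shares were found on chromosomes 20, with 38.5% (33.4 to 43.8), and 2, with 38.3% (35.1 to 41.5). The share missing from each LN-35 library moved alike, from 20.5% and 34.0% on chromosome 19 to 41.9% and 56.2% on chromosome 18. Near gene ends chromosome 19 was at 4.59% and chromosome 18 at 17.9%. Copy number of the 2 cell types was not analysed here.

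**Figure D5:**
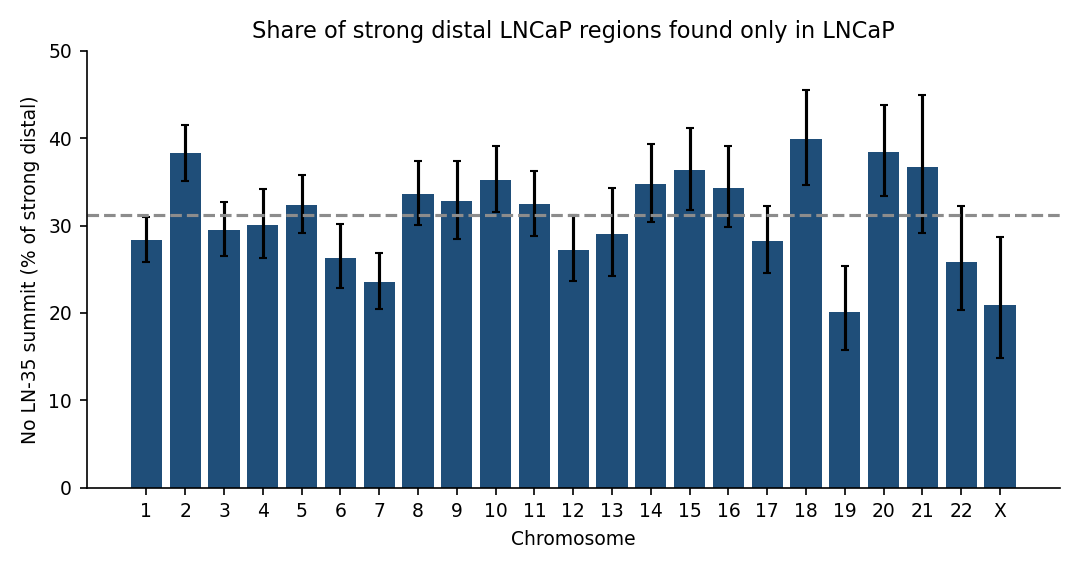
Members as a percent of the strong distal LNCaP regions of each chromosome but Y (bars from 0, 95% Wilson intervals), with the share over all chromosomes, 31.3%, as a dashed line. Chromosomes 19, X and 7 were lowest, at 20.1%, 20.9% and 23.5%, and chromosome 18 highest of those plotted, at 39.9%.

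The labelled cell type was checked on markers. All 10 luminal prostate genes had a summit within 3 kb of an end in every library, with median best percentiles of 74.3 and 74.7 for the LNCaP libraries and 84.5 and 69.99 for those of LN-35. KLK3, which codes for prostate-specific antigen and is a defining luminal marker, stood apart, with best percentiles of 4.79 and 3.46 in LNCaP against 82.7 and 60.6 in LN-35. PTPRC, a marker of blood cells, and KRT5, a basal keratin, had none in any library, and TP63, a basal factor, had one at percentile 0.0230 in LNCaP replicate 1 alone. KRT14, another basal keratin, had one in each library, at percentiles between 82.6 and 94.2. The 3 genes of stroma and vessel, VIM, COL1A1 and PECAM1, had summits in all 4, at median best percentiles of 84.4, 76.9, 81.9 and 76.3, and the part of other cells in the lists was not tested.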

How the data were processed

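ATAC-seq was made from LNCaP and LN-35 cells with a transposase kit, 2 libraries each. The authors deposited a summit list per library, called on each library separately, whose score column is a −log10 p-value or q-value; which of these it is was not given in the sources used here. The submitters' processing notes name Bowtie2 2.2.5, SAMtools 1.6, MACS2 2.2.6, deepTools 3.5.2, HOMER 4.11, edgeR 3.22.5 and the build hg38. No read counts were used here, so depth per sample is unknown, and a list's length is the only guide to precision. Scores depend on depth and were therefore ranked within a library to choose the members. Exceptions were the alternative with a score of at least 10 and the mean score used to order tied members.

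Summits were widened by 250 bp per side and merged. Of the regions, 185 off chromosomes 1 to 22, X and Y were left out of all counts but the total. Distances ran to either end of 59675 RefSeq genes (GRCh38.p14), 20033 of them protein-coding. Strand and internal starts came from RefSeq's promoter stretches, which cover 79.1% of protein-coding genes. No genome sequence was used, so members away from such starts have no sequence here. Members and gene lists were chosen with earlier results of these data known. Regions named were the 10 strongest, those at the threshold, the 5 genes or runs with most members, with ties, and the strongest at listed genes. The internal starts and their printed stretches were chosen after their values were seen. No test was run. Shares carry 95% Wilson intervals and medians 95% order-statistic intervals. The computation was tested on simulated lists. Alternatives were other windows, strength and distance thresholds, protein-coding genes alone, equal lists, a score of at least 10, leaving out each library, and each repeat alone. Computation was in Python 3.11.15 with pandas 2.3.3, numpy 2.4.6, matplotlib 3.10.9 for plots and scipy 1.17.1 for intervals. Results at some listed genes are not reported here.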

Additional observations from a re-analysis of the deposited data

How the results depend on the processing

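The number of members, 3634, was 6813 at a mean percentile of at least 70, 1307 at 90, 1235 with equal lists, 1996 with a score of at least 10 and 5467 within repeat 2 alone. The other alternatives kept it within 1.5 times. With equal lists and with a score of at least 10, percentiles were ranked anew within the shortened lists. Leaving out a library gave 3752 to 5267, the highest without LN-35 replicate 1, which left the shortest list as the only LN-35 list.

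Members as a share of strong distal LNCaP regions, 31.3%, came to 32.7% with windows of 100 bp, 36.3% at a percentile of 70, 25.2% at 90, 29.6% when the lower LNCaP percentile had to reach 80, 32.9% beyond 10 kb from a gene end, 29.9% with protein-coding gene ends, 30.1% with equal lists, 36.0% with a score of at least 10, 34.7% within repeat 1 and 46.7% within repeat 2. Without a library it was 32.0% to 45.3%, the highest without LN-35 replicate 1. The share of members inside a gene, 72.0%, was 75.6% at a percentile of 90, 75.7% with equal lists, 73.9% with a score of at least 10 and 70.3% within repeat 2, and 71.2% to 72.0% without a library. The cause of these shifts was not tested.

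Counts at listed genes rest on few regions. The 14 at androgen receptor targets became 6 with equal lists and 24 without LN-35 replicate 1. The 7 at neuroendocrine genes became 1 with equal lists. All members went from 3634 to 1235 with equal lists and to 5267 without LN-35 replicate 1. The 2 at luminal and pioneer factor genes became 7 at a percentile of 70 and 4 without LNCaP replicate 2, where all members numbered 6813 and 4363. The comparisons with near-end, reverse and all-library regions under these settings were added after seeing the data. No paired analysis was possible because no result comes from a test; the labels mark repeats 1 and 2 as batches, and the values within each are given above. Motif shares over whole regions were not run, since no genome was used.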
